A study of Mus musculus with 45 samples.

Results

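Acetylation of histone H3 at lysine 9 (H3K9ac) was examined at the loci of genes that mark homeostatic microglia, the resident macrophages of the brain. The members are the H3K9ac domains that overlap 5 windows of the mm9 genome, set around Csf1r, Cx3cr1, the C1q genes, Mpeg1 and Ly86. The windows held 21 of the 44165 domains. Of these, 2 lay in the Csf1r window, 8 in the Cx3cr1 window, 5 in the C1q window, 3 in the Mpeg1 window and 3 in the Ly86 window. Within a window the domains are numbered from the lowest coordinate upward, and the domain with the highest mean level over all 23 H3K9ac libraries is called the lead domain.

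The mark was mapped in the hippocampus of mice by ChIP-seq, in which DNA bound to the acetylated histone is pulled down with an antibody and sequenced. The study asked where the mark differs between models of neurodegeneration and their controls. Transgenic mice carrying human tau with the P301S mutation (MAPT P301S) and wild type controls were sampled at 6 months, with 2 tau and 3 wild type libraries, all from females. At 11 months there were 3 tau and 3 wild type libraries, all from males, so age and sex cannot be told apart in the tau series. CK-p25 mice, double-transgenic females in which the Cdk5 activator p25 can be induced, were compared with CK control littermates. The groups were sampled 2 weeks after induction, at an age of 3.5 months, and 6 weeks after induction, at 4.5 months, with 3 libraries per group, so age and time after induction cannot be told apart. As background, p25 in this model is driven in forebrain neurons and not in microglia. The sources used here do not give the promoter of the tau transgene. The labels do not say that each library is a separate animal, so p-values measure the spread between these libraries, which may be technical.

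Microglia depend on signalling through the receptor Csf1r for their survival, survey the tissue, and produce the chains of complement C1q. In models of neurodegeneration microglia change state and can multiply. H3K9ac marks active promoters and enhancers, so in whole tissue the mark at a gene used by 1 cell type depends both on how many such cells there are and on the acetylation in each. In these bulk samples more microglia and more acetylation per microglial cell cannot be told apart. The same genes are used by macrophages from outside the brain, and the part of such cells in the results was not tested. Gene names come from the windows alone, because the gene table at hand is for another genome build. In that table Csf1r lies between Pdgfrb and Hmgxb3, Cx3cr1 between Xirp1 and Ccr8, Mpeg1 between Pfpl and Dtx4, and Ly86 between F13a1 and Rreb1. C1qb, C1qc and C1qa follow one another between Ephb2 and Epha8.

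Promoter sequences are shown for 4 genes of the windows that gained the mark, since H3K9ac collects around start sites. They are from RefSeq, build GRCm38.p6, and run from 250 bases before the start site to 50 bases after it. The coordinates are chr4:136886151-136886450 for C1qb and chr4:136892865-136893164 for C1qc, both on the minus strand. Those of Mpeg1 are chr19:12460520-12460819 and those of Ly86 chr13:37345095-37345394, both on the plus strand. Capitals mark matches to GAGGAA, the core bound by the myeloid factor PU.1, on either strand.
C1qb: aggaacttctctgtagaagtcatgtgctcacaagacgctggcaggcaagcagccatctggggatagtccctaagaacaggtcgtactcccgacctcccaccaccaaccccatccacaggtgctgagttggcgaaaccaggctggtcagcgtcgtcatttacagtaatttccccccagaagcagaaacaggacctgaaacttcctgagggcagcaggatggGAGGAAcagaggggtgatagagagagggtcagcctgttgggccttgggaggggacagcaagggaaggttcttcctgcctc
C1qc: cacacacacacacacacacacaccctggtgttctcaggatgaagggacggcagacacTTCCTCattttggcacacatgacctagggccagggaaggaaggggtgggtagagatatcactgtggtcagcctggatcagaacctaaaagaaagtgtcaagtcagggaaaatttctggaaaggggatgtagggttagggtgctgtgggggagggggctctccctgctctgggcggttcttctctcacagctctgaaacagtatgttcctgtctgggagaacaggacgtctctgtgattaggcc
Mpeg1: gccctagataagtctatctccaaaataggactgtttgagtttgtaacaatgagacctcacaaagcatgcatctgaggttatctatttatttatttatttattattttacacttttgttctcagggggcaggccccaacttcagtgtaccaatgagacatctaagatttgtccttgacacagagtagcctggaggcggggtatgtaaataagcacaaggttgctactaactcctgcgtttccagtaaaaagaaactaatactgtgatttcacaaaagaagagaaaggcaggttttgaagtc
Ly86: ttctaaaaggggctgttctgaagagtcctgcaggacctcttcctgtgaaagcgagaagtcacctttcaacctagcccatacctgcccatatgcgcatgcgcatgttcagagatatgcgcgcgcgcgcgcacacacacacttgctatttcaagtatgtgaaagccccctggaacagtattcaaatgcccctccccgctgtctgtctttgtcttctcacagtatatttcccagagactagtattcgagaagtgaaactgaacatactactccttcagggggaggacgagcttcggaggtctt
GAGGAA was found once in the C1qb promoter, at position -30 from the start site, and once in the C1qc promoter as its reverse complement, at position -193. No match lay in the windows shown for Mpeg1 and Ly86, or in that of Cx3cr1. The motif occurs in 28.3% of 32851 mouse promoters of the same length. The composite ETS-IRF element, bound by PU.1 together with IRF factors and searched on both strands, matched none of these 5 promoters and 2.72% of all. Because the builds differ, these sequences were not placed against the domains.

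The domains were 133 to 3777 bp wide, with a median of 670 bp against 776 bp over all domains. Libraries of the tau series held 4.10 to 6.18 M reads in domains, and those of the CK-p25 series 0.996 to 4.13 M. The libraries of lowest depth were CK replicate 3 and CK-p25 replicate 3 at 6 weeks. The labels also give each library's cross correlation, which gauges how well the pull-down enriched. At 11 months it averaged 0.228 ± 0.0264 (SD, n = 3) over tau libraries and 0.313 ± 0.025 (n = 3) over those of wild type mice. These groups did not overlap, and the part of this difference in the results at 11 months was not tested beyond the fit with cross correlation as a covariate given below. Cross correlation overlapped between CK and CK-p25 libraries at both times.

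H3K9ac at the microglial loci was higher in tau mice at 11 months and in CK-p25 mice at both times, and no domain fell in these comparisons. Levels are reads in a domain scaled to the library's reads in all domains (CPM), with TMM factors for library composition, and differences are log2 fold changes with their standard errors (SE). A domain is said to have risen when its adjusted p in edgeR's quasi-likelihood test, corrected over all domains by the Benjamini-Hochberg method, was under 0.05. At 11 months 11 of 19 tested domains rose in tau mice, against 4.4% of all 44105 domains tested, and 0 fell, against 7.56% of all. In CK-p25 mice 13 of 17 tested domains rose at 2 weeks, against 1.51% of all 38193, and 10 of 17 at 6 weeks, against 1.32%. A filter on low counts left out the narrow Cx3cr1 domains 3 and 5 in the tau series, and Cx3cr1 domains 1 and 8, C1q domain 3 and Mpeg1 domain 3 in the CK-p25 series. In the CK-p25 series, narrow domains such as Cx3cr1 domain 5, Mpeg1 domain 2 and Ly86 domain 2 passed this filter through CK-p25 libraries alone. The counts over tested domains thus lean toward a rise in that series. With no such filter 11, 14 and 10 of the 21 domains rose in the same comparisons.

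**Figure D1:**
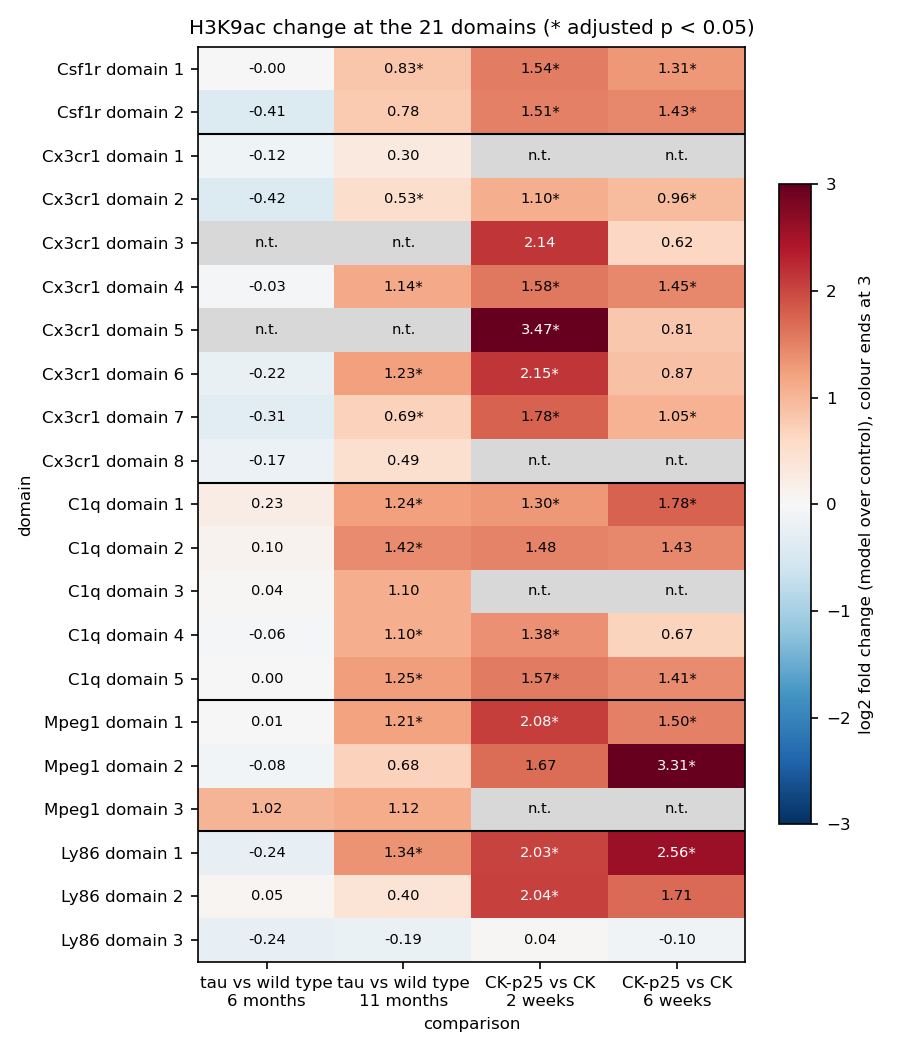
Log2 fold change of H3K9ac (disease model over control) at the 21 domains (rows) in the 4 comparisons (columns), with colour from blue (lower) to red (higher), asterisks where the adjusted p was under 0.05 and n.t. where a domain was not tested. The column of tau mice at 6 months holds no asterisk, while 11, 13 and 10 domains carry one in the other columns.

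The changes were large beside those of most domains. The median log2 fold change of the tested members was 1.10 at 11 months against 0.01 over all domains, 1.58 against -0.00 in CK-p25 mice at 2 weeks, and 1.41 against -0.00 at 6 weeks. In 13 of 21 domains every tau library at 11 months lay above every wild type library, against 11.2% of all domains. The same held for 17 of 21 domains in CK-p25 mice at 2 weeks, against 8.01%, and for 14 of 21 at 6 weeks, against 8.49%. Of the 15 domains tested in both series, 8 rose in all 3 of these comparisons, against 0.605% of 38167 domains. They were Csf1r domain 1, Cx3cr1 domains 2, 4 and 7, C1q domains 1 and 5, Mpeg1 domain 1 and Ly86 domain 1.

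The calls were also counted by width, since wide domains hold more reads. Of the 10 domains over 1000 bp, 10 rose at 11 months, 9 in CK-p25 mice at 2 weeks and 8 at 6 weeks. Of the narrower domains 1 of 9, 4 of 7 and 2 of 7 rose. The median log2 fold change of the narrower domains was 0.68 at 11 months, 1.67 at 2 weeks and 0.81 at 6 weeks, against 1.22, 1.57 and 1.42 for the wide ones. The difference between wide and narrow domains was not tested, nor set against that over all domains. In the CK-p25 series the filter on low counts also favours narrow domains that were high in CK-p25 libraries.

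The Csf1r window, around the gene of the receptor for CSF1 and IL-34, held 2 domains 188 bp apart on chromosome 18. The lead domain, from 61265536 to 61267229, was at 14.0, 11.1 and 12.5 CPM in wild type mice at 11 months and at 23.5, 17.5 and 25.2 CPM in tau mice. In CK mice it was at 13.8, 11.4 and 9.75 CPM at 2 weeks, and in CK-p25 mice at 27.7, 37.3 and 38.2 CPM. At 6 weeks the CK libraries were at 15.0, 12.5 and 9.23 CPM and the CK-p25 libraries at 33.2, 30.5 and 36.3 CPM. Every library of the disease models lay above every control library at these 3 points, and replicate 2 was the lowest of the tau libraries. The log2 fold change was 0.83 ± 0.15 (SE; edgeR adjusted p = 1.92e-05) in tau mice at 11 months. It was 1.54 ± 0.18 (edgeR adjusted p = 3.57e-11) in CK-p25 mice at 2 weeks and 1.31 ± 0.20 (edgeR adjusted p = 1.97e-06) at 6 weeks. The neighbouring domain 2, from 61267418 to 61267949, had log2 gains in CK-p25 mice of 1.51 ± 0.32 at 2 weeks and 1.43 ± 0.38 at 6 weeks (edgeR adjusted p = 0.00123 and 0.0174). The 2-week call was lost without CK or CK-p25 replicate 2 (edgeR adjusted p = 0.0712 and 0.0647). The 6-week call was lost without CK replicate 1 or 2 or CK-p25 replicate 1 (edgeR adjusted p = 0.169, 0.0572 and 0.0737), without both shallow libraries (0.0595) and with the covariate (0.0545). In tau mice its log2 difference at 11 months was 0.78 ± 0.32 (edgeR adjusted p = 0.114), which missed the threshold.

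The Cx3cr1 window, around the receptor for the neuronal chemokine fractalkine, held the most domains, spread over chromosome 9 from 119952695 to 119982460. Its lead domain 2, from 119963537 to 119965508, stood 7801 bp or more from its neighbours. It was at 9.23, 11.1 and 10.6 CPM in wild type and 14.2, 15.8 and 14.7 CPM in tau mice at 11 months. In the CK-p25 series it was at 7.96, 10.1 and 11.3 CPM in CK and 19.6, 24.3 and 18.4 CPM in CK-p25 mice at 2 weeks. At 6 weeks these levels were 11.2, 9.21 and 8.20 CPM in CK and 16.6, 22.1 and 22.4 CPM in CK-p25 mice. The groups did not overlap at any of these points, yet the gain was the smallest of the 5 lead domains in each. On the log2 scale it was 0.53 ± 0.17 (edgeR adjusted p = 0.0248) in tau mice at 11 months, 1.10 ± 0.20 (edgeR adjusted p = 9.94e-05) at 2 weeks and 0.96 ± 0.24 (edgeR adjusted p = 0.00764) at 6 weeks. The call at 11 months was lost in the DESeq2 Wald test (adjusted p = 0.0984), with cross correlation as a covariate, and without wild type replicate 1 or tau replicate 2 or 3 (edgeR adjusted p = 0.126, 0.0571 and 0.0594). At 6 weeks it was lost without CK-p25 replicate 2 (edgeR adjusted p = 0.0510) and without both shallow libraries (edgeR adjusted p = 0.0807).

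The other wide domains of this window, numbers 4, 6 and 7, lay close together from 119974252 to 119978972. Domain 4 was at 6.10, 5.84 and 6.67 CPM in wild type and 18.1, 8.48 and 13.8 CPM in tau mice at 11 months, a log2 gain of 1.14 ± 0.20 (SE; edgeR adjusted p = 2.12e-05). It rose by 1.58 ± 0.22 at 2 weeks and 1.45 ± 0.25 at 6 weeks in CK-p25 mice (edgeR adjusted p = 2.77e-08 and 2.69e-05). Domain 7 also rose in the 3 comparisons, with log2 gains of 0.69 ± 0.20, 1.78 ± 0.24 and 1.05 ± 0.27 (edgeR adjusted p = 0.0106, 1.81e-08 and 0.0134). The 11-month call of domain 7 was lost without wild type or tau replicate 1 (edgeR adjusted p = 0.0528 and 0.105) and in the DESeq2 Wald test (adjusted p = 0.0567). Its 6-week call was lost without CK replicate 1 or 2 (edgeR adjusted p = 0.120 and 0.0716), without both shallow libraries (0.0602) and in the DESeq2 Wald test (adjusted p = 0.0668). Domain 6 rose by 1.23 ± 0.24 at 11 months and 2.15 ± 0.27 at 2 weeks (edgeR adjusted p = 0.000111 and 7.71e-10), and its log2 difference at 6 weeks was 0.87 ± 0.29 (edgeR adjusted p = 0.0885). Its CK levels were 4.61, 3.61 and 3.59 CPM at 2 weeks and 6.08, 9.21 and 5.13 CPM at 6 weeks, so the controls of the 2 times did not overlap. Between domains 4 and 6, the narrow domain 5 (119975916 to 119976066) held 11, 10 and 12 reads in CK-p25 and 0, 2 and 0 reads in CK libraries at 2 weeks. The ratio of the summed normalised reads was 12.7 (95% interval 3.25 to 109, counting error only), and the domain passed the test (edgeR adjusted p = 0.00394). Only CK-p25 libraries brought the domain past the filter on low counts, so this call is no separate support for a rise. With the 2-week groups fitted alone the domain did not enter the test, and the DESeq2 Wald test gave it no adjusted p. Domains 1, 3 and 8 did not pass in any comparison they entered.

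**Figure D2:**
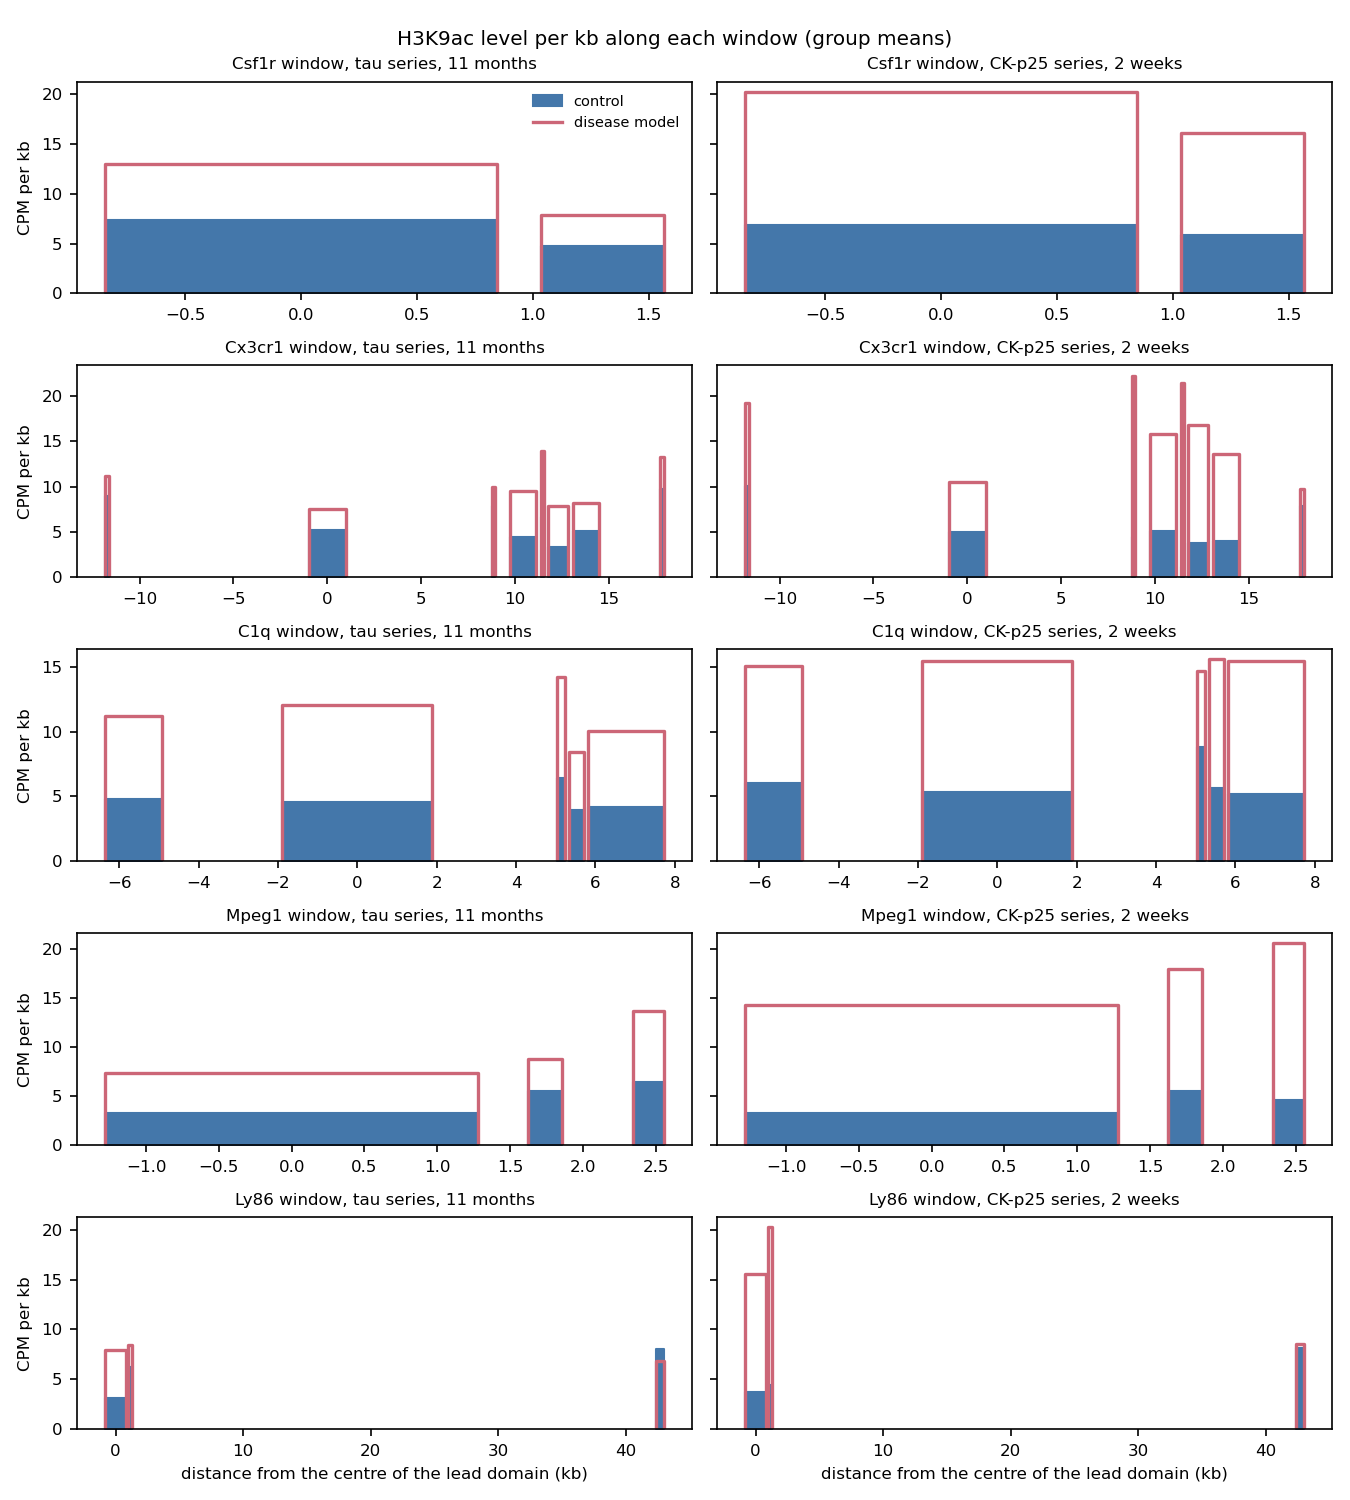
Group mean H3K9ac level per kb of domain (CPM per kb, vertical axis) against the distance from the centre of the lead domain (kb, horizontal axis) in each window, at 11 months in the tau series (left) and at 2 weeks in the CK-p25 series (right), with blue bars for controls and red outlines for disease models. The outline stands above the bar at the lead domain of every window, while the Ly86 domain 41073 bp from its nearest neighbour in the window shows little difference.

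The C1q window holds the genes of the 3 chains of C1q, which starts the classical complement pathway and tags synapses for removal by microglia. Its 5 domains lay on chromosome 4, and lead domain 2, from 136445026 to 136448802, was the widest of all 21. It was at 19.8, 17.3 and 14.8 CPM in wild type and 54.6, 34.9 and 47.3 CPM in tau mice at 11 months. The log2 gain of 1.42 ± 0.14 (SE; edgeR adjusted p = 2.46e-10) was the largest among the members at this age. In the CK-p25 series the same domain was at 29.3, 21.2 and 10.3 CPM in CK and 40.9, 79.0 and 55.5 CPM in CK-p25 mice at 2 weeks. At 6 weeks it was at 24.3, 21.7 and 18.5 CPM in CK and 64.9, 50.9 and 69.6 CPM in CK-p25 mice. The groups did not overlap at either time, and the 2-week libraries were widely spread within each group. The log2 differences of 1.48 ± 0.34 and 1.43 ± 0.38 missed the threshold (edgeR adjusted p = 0.0816 and 0.122). They passed in the DESeq2 Wald test (adjusted p = 0.00522 and 0.00733). The 2-week value also passed without CK-p25 replicate 1 or 2 (edgeR adjusted p = 0.000489 and 0.00103), and the 6-week value when the 6-week groups were fitted alone (edgeR adjusted p = 7.77e-10).

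Both other wide domains of the window rose in both models. Domain 1, from 136440561 to 136441986, was at 7.08, 7.39 and 6.02 CPM in wild type and 15.5, 13.6 and 18.8 CPM in tau mice at 11 months. Its log2 gain was 1.24 ± 0.18 there, 1.30 ± 0.22 at 2 weeks and 1.78 ± 0.26 at 6 weeks (edgeR adjusted p = 2.73e-07, 1.18e-05 and 7.51e-07). Domain 5, from 136452740 to 136454645, was at 9.39, 7.39 and 7.15 CPM in wild type and 18.4, 20.4 and 18.6 CPM in tau mice. Its log2 gains were 1.25 ± 0.17, 1.57 ± 0.20 and 1.41 ± 0.23 (edgeR adjusted p = 3.06e-08, 6.83e-09 and 1.42e-05). Both domains thus gained the mark at all 3 points with no overlap between groups at 11 months. The narrow domain 4 was at 3.21 ± 0.736 CPM (SD, n = 3) in tau and 1.503 ± 0.666 CPM (n = 3) in wild type mice at 11 months, and at 3.06 ± 0.417 (n = 2) and 3.20 ± 0.557 CPM (n = 3) at 6 months. The tau level at 11 months thus lay within the range of both 6-month groups, and the wild type level was below it. Its log2 difference of 1.10 ± 0.38 at 11 months passed the threshold (edgeR adjusted p = 0.0434). It did not pass with the compared groups fitted alone (edgeR adjusted p = 0.0777), without wild type replicate 2 or 3 (0.0844 and 0.227) or without tau replicate 1 or 3 (0.0595 and 0.244). In CK-p25 mice the log2 difference of domain 4 was 1.38 ± 0.39 at 2 weeks and 0.67 ± 0.41 at 6 weeks (edgeR adjusted p = 0.0317 and 0.527). The 2-week call was lost without CK replicate 1, 2 or 3 or CK-p25 replicate 3 (edgeR adjusted p = 0.112, 0.177, 0.0990 and 0.225), with the covariate (0.0768) and in the DESeq2 Wald test (adjusted p = 0.255). Domain 3 missed the threshold in tau mice, at 1.10 ± 0.44 on the log2 scale (edgeR adjusted p = 0.0921).

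Mpeg1 encodes perforin-2, a pore-forming protein of macrophages that acts on engulfed bacteria. Lead domain 1 of its window, on chromosome 19 from 12535693 to 12538254, was at 10.5, 7.78 and 6.50 CPM in wild type and 21.9, 12.4 and 22.1 CPM in tau mice at 11 months. At 2 weeks it was at 7.96, 9.55 and 7.69 CPM in CK and 32.1, 39.4 and 38.6 CPM in CK-p25 mice. At 6 weeks the CK libraries held 11.2, 14.5 and 6.15 CPM and the CK-p25 libraries 31.0, 32.2 and 32.5 CPM. No groups overlapped, although tau replicate 2 came close to the highest wild type library. The log2 gain was 1.21 ± 0.18 (SE; edgeR adjusted p = 5.79e-07) at 11 months and 2.08 ± 0.19 (edgeR adjusted p = 1.17e-16) at 2 weeks, and it corresponded to 2.83-fold at 6 weeks (edgeR adjusted p = 1.25e-07). By p-value it ranked 8th of 38193 domains at 2 weeks and 13th at 6 weeks. Domain 2 (12538598 to 12538827) held 14, 13 and 6 reads in CK-p25 and 0, 1 and 1 reads in CK libraries at 6 weeks. The ratio of its summed normalised reads was 11.1 (95% interval 2.83 to 95.1, counting error only; edgeR adjusted p = 0.00735). The call was lost without CK replicate 1 (edgeR adjusted p = 0.219). Domain 2 passed the filter on low counts through CK-p25 libraries alone. At 2 weeks its log2 difference of 1.67 ± 0.53 missed the threshold (edgeR adjusted p = 0.0826).

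Ly86 encodes MD-1, the partner of the Toll-like receptor homologue CD180. Lead domain 1 of its window, on chromosome 13 from 37437294 to 37438908, was at 4.78, 5.06 and 5.37 CPM in wild type and 13.3, 10.4 and 14.5 CPM in tau mice at 11 months. At 2 weeks it was at 5.03, 6.71 and 6.15 CPM in CK and 19.8, 28.4 and 27.2 CPM in CK-p25 mice. At 6 weeks the CK libraries were at 4.16, 3.95 and 1.03 CPM, the last resting on 1 read, and the CK-p25 libraries at 21.9, 18.8 and 24.0 CPM. Again no groups overlapped. The log2 gain was 1.34 ± 0.21 (SE; edgeR adjusted p = 6.46e-07) at 11 months and 2.03 ± 0.22 (edgeR adjusted p = 5.63e-12) at 2 weeks. At 6 weeks its evidence ranked 4th of all 38193 domains tested. With cross correlation as a covariate the gain at 11 months was 1.29 and missed the threshold (edgeR adjusted p = 0.146).

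The domains of the Ly86 window did not move as a block. Domain 2, 182 bp from the lead domain, had a log2 gain of 2.04 ± 0.49 at 2 weeks (edgeR adjusted p = 0.00574), with 14, 20 and 20 reads in CK-p25 and 4, 5 and 1 reads in CK libraries. This call was lost without CK replicate 2 or CK-p25 replicate 3 (edgeR adjusted p = 0.0675 and 0.0996). Domain 2 passed the filter on low counts through CK-p25 libraries alone. Its log2 difference was 0.40 ± 0.43 in tau mice at 11 months, where the groups overlapped, and 1.71 ± 0.63 at 6 weeks (edgeR adjusted p = 0.632 and 0.151). Domain 3, from 37480427 to 37481096, lies 41073 bp further on. It was at 5.44, 6.42 and 4.39 CPM in wild type and 5.11, 3.15 and 5.52 CPM in tau mice at 11 months. At 2 weeks it was at 6.29, 5.94 and 4.10 CPM in CK and 6.12, 5.48 and 5.51 CPM in CK-p25 mice. The groups overlapped at both points, with log2 differences of -0.19 (95% interval -0.70 to 0.32) and 0.04 (-0.57 to 0.64).

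**Figure D3:**
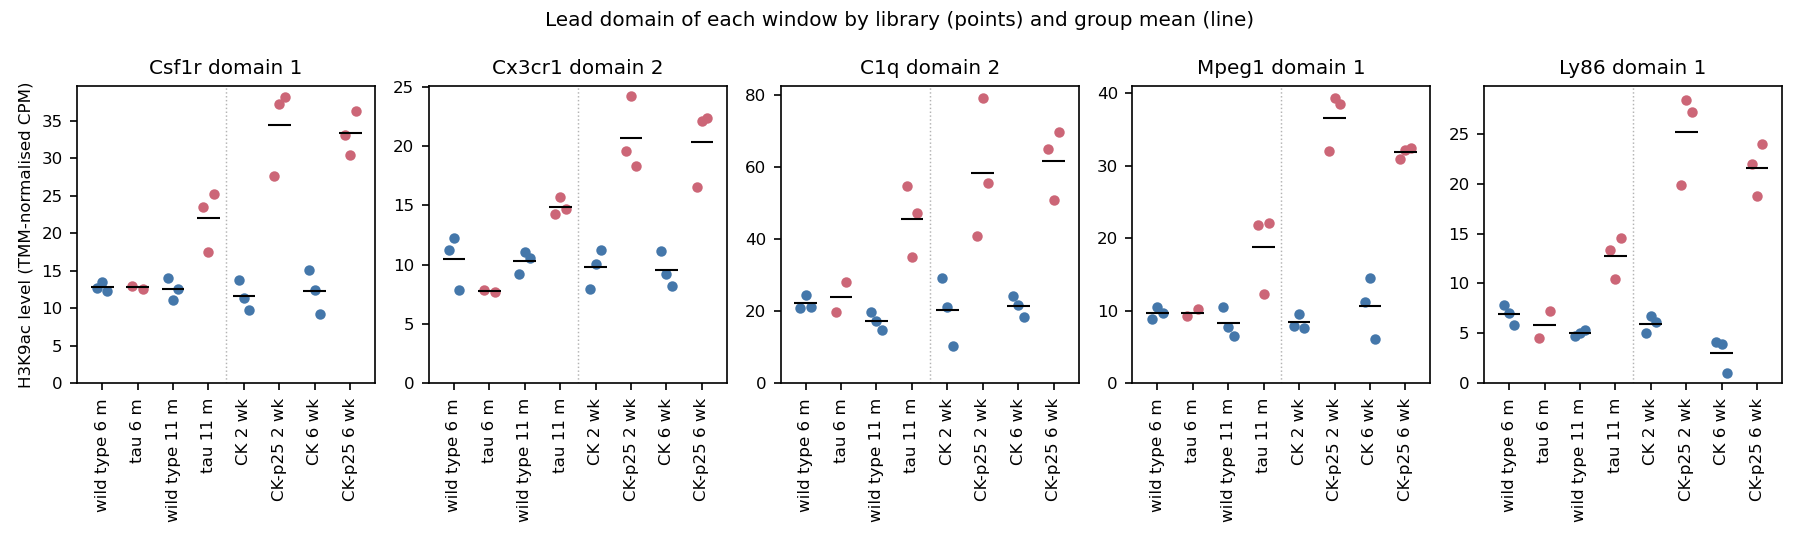
H3K9ac level (TMM-normalised CPM, vertical axis) of the lead domain of each window in every library, by group, with blue points for control and red points for disease model libraries and a black line at the group mean. Tau libraries at 11 months and CK-p25 libraries at both times stand above their controls in each panel, while tau and wild type libraries at 6 months share a range.

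At 6 months the tau mice did not show these gains. None of the 19 tested domains passed (0 at an unadjusted p under 0.05, and 0 in the DESeq2 Wald test), and 0% of all 44105 domains were called higher. The lead domain of Csf1r was at 12.7, 13.5 and 12.3 CPM in wild type and 13.03 and 12.6 CPM in tau mice. That of C1q was at 20.98, 24.4 and 21.2 CPM in wild type and 19.7 and 28.1 CPM in tau mice. These groups overlapped, and the median log2 difference of the members was -0.06. The 95% interval of the log2 difference ran from -0.38 to 0.37 at the Csf1r lead domain, from -0.23 to 0.43 at C1q, from -0.45 to 0.46 at Mpeg1 and from -0.75 to 0.27 at Ly86. At the Cx3cr1 lead domain, with 11.2, 12.2 and 7.88 CPM in wild type and 7.90 and 7.66 CPM in tau mice, it was farthest from 0, at -0.42 (-0.85 to 0.01). The log2 difference was negative at 6 of 6 tested Cx3cr1 domains. Both tau libraries lay above all wild type libraries at 1 of 21 domains, Mpeg1 domain 3, against 9.63% of all domains, and below them at 1, Csf1r domain 2, against 10.2%.

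The tau effect itself differed between the ages at 9 of 19 domains, against 4.23% of all domains in either direction, and each of the 9 was more positive at 11 months. The difference of the log2 fold changes was 1.58 ± 0.33 (SE; edgeR adjusted p = 0.000866) at the Ly86 lead domain and 1.32 ± 0.22 (edgeR adjusted p = 6.88e-05) at that of C1q. At the lead domains of Mpeg1, Cx3cr1 and Csf1r it was 1.20 ± 0.29, 0.95 ± 0.28 and 0.83 ± 0.24 (edgeR adjusted p = 0.00614, 0.0298 and 0.0278). The Cx3cr1 and Csf1r calls were lost in the DESeq2 Wald test (adjusted p = 0.0837 and 0.0815). With cross correlation as a covariate the Cx3cr1, Csf1r and Ly86 calls were lost (edgeR adjusted p = 0.618, 0.0790 and 0.160). Leaving out 6-month wild type replicate 1 or 2 lost the Cx3cr1 and Csf1r calls. At 11 months, leaving out wild type replicate 1 lost the Cx3cr1 call, and wild type replicate 2 or tau replicate 1 or 3 the Csf1r call. The group of tau mice at 6 months has 2 libraries, and without its replicate 1 or 2 the count was 4 or 5. In wild type mice alone 0 of 19 domains differed between 11 and 6 months in edgeR's test, against 1.45% of all domains, with 4 at an unadjusted p under 0.05, all lower at 11 months, and 0 in the DESeq2 Wald test.

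**Figure D4:**
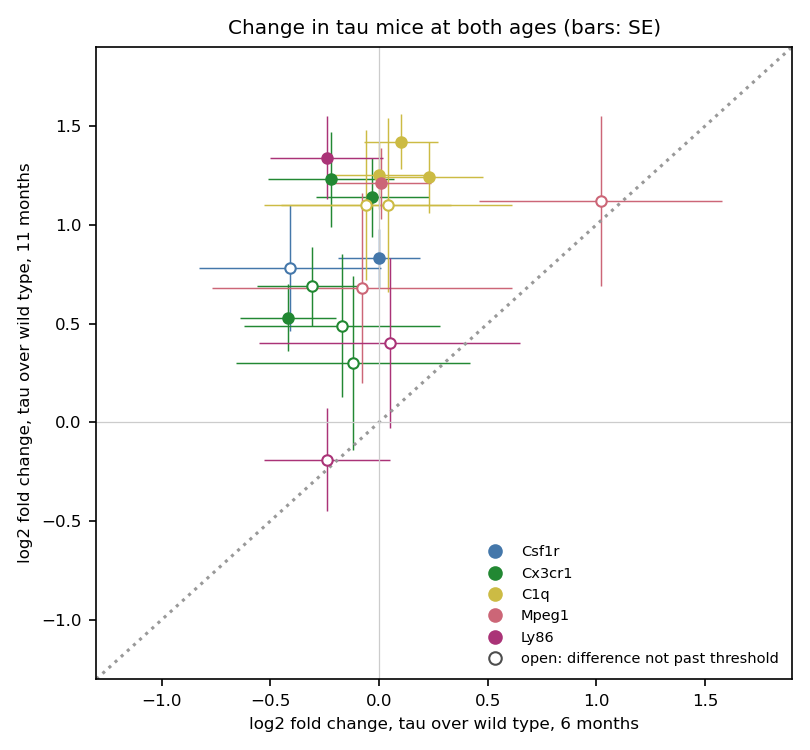
Log2 fold change of tau over wild type at 6 months (horizontal axis) and 11 months (vertical axis) for the 19 domains tested in the tau series, coloured by window, with bars of 1 SE and filled points where the difference between ages passed the threshold. The 9 filled points lie above the dotted line of equal change.

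With cross correlation as a covariate, 4 of the 11 domains called at 11 months passed. They were Csf1r domain 1, Cx3cr1 domain 4, C1q domain 2 and Mpeg1 domain 1. The log2 fold changes moved in both directions. With the covariate it was 1.25 at the Csf1r lead domain, 2.04 at C1q and 2.10 at Mpeg1, above the values without it, and 0.28 at Cx3cr1 (edgeR adjusted p = 0.847), below it. Of the other calls lost, the log2 fold change was 1.57 at Cx3cr1 domain 6, 0.68 at Cx3cr1 domain 7, 1.38, 1.71 and 1.26 at C1q domains 1, 4 and 5 and 1.29 at Ly86 domain 1. Under the same covariate 3 domains passed for the difference between ages. Neither count was set against the share of all domains called in this fit. Since cross correlation did not overlap between tau and wild type libraries at 11 months, its part and that of tau cannot be well separated. Whether calls were lost at these loci alone or over all domains was not examined.

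Between 2 and 6 weeks the effect of p25 did not pass the test at any of 17 domains in edgeR's test, against 0.00524% of all domains. Cx3cr1 domains 5 and 6 had an unadjusted p under 0.05, and the DESeq2 Wald test also called 0. The difference of the log2 fold changes, 6 minus 2 weeks, was -1.27 (95% interval -2.10 to -0.45) at Cx3cr1 domain 6 and 0.54 (-0.29 to 1.37) at Ly86 domain 1. In CK mice alone 0 of 17 domains differed between the times in edgeR's test, against 0.00262% of all domains, with 4 at an unadjusted p under 0.05 and 0 in the DESeq2 Wald test.

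Summed over its domains, each window had the same 3 groups at the top, which were CK-p25 mice at both times and then tau mice at 11 months. Levels of the 2 series were set on separate scales and antibody lots, so the order between series is a description. The C1q window was at 86.8 ± 10.6 CPM (SD, n = 3) in tau and 34.9 ± 5.47 CPM (n = 3) in wild type mice at 11 months. In CK-p25 mice it was at 118 ± 31.2 CPM (n = 3) at 2 weeks and 122.9 ± 22.3 CPM (n = 3) at 6 weeks, which differed by less than their spread, against 42.6 ± 14.0 and 43.5 ± 7.40 CPM in CK mice. The ratio of group means in CK-p25 mice at 2 weeks was 4.24 for Mpeg1, 2.97 for Cx3cr1, 2.90 for Csf1r, 2.88 for Ly86 and 2.78 for C1q. At 6 weeks it was 3.61 for Ly86, 3.08 for Mpeg1, 2.82 for C1q, 2.70 for Csf1r and 2.08 for Cx3cr1. In tau mice at 11 months C1q came first at 2.48, followed by Mpeg1 at 2.17, Csf1r at 1.74, Cx3cr1 at 1.71 and Ly86 at 1.62, the last window including the distant domain 3. In tau mice at 6 months the ratios ran from 0.857 for Cx3cr1 to 1.09 for Mpeg1.

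In the 12 libraries of control mice, the level per kb differed between lead domains. It was 7.27 ± 1.02 CPM per kb (SD, n = 12) at Csf1r, 5.38 ± 1.29 at C1q, 5.08 ± 0.751 at Cx3cr1, 3.61 ± 0.898 at Mpeg1 and 3.25 ± 1.10 at Ly86. These SDs pool both series, so they also hold differences of antibody lot, age and sex. C1q and Cx3cr1 lay within each other's spread in this sense, as did Mpeg1 and Ly86. The 2 lead domains with the lowest control level per kb, Mpeg1 and Ly86, had the largest log2 differences of the 5 in CK-p25 mice, which share these control libraries.

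Together the 21 domains took 0.00996% to 0.0111% of the reads in domains in wild type libraries at 11 months and 0.0177% to 0.0241% in tau libraries. In CK libraries the share was 0.00899% to 0.0125% at 2 weeks and 0.00954% to 0.0130% at 6 weeks. In CK-p25 libraries it was 0.0262% to 0.0390% and 0.0289% to 0.0336%. At 6 months the shares overlapped, at 0.0118% to 0.0124% in wild type and 0.0111% to 0.0125% in tau libraries. The shares rest on 95 to 1506 reads per library.

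**Figure D5:**
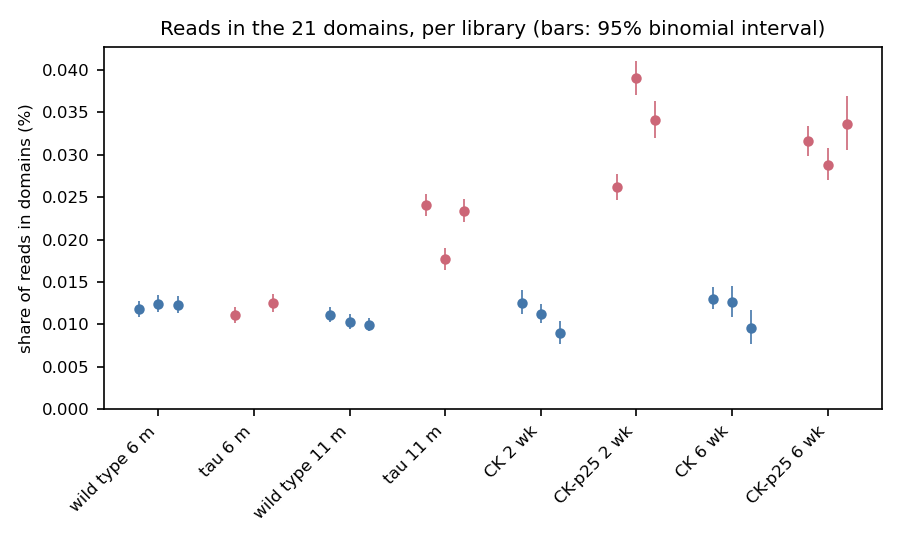
Share of reads in domains that fell in the 21 domains (%, vertical axis) for each of the 23 libraries by group, with blue points for controls, red points for disease models and bars of the exact (Clopper-Pearson) 95% binomial interval, which covers counting error only. Tau libraries at 11 months stand between 0.0177% and 0.0241%, above the wild type libraries, and CK-p25 libraries stand above CK libraries at both times.

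The nearest domain outside each window on either side was examined in the same fits. The distances from the windows ran from 2049 to 436851 bp, so these domains do not show where a gain ends. None of the 10 such domains rose in tau mice at 11 months, and 1 fell, to the left of the C1q window at a distance of 46937 bp, its log2 difference being -0.33 ± 0.11 (edgeR adjusted p = 0.0433). In CK-p25 mice 1 of the 8 tested rose at 2 weeks and 0 at 6 weeks. It lay 2049 bp to the left of the Cx3cr1 window and rose by 1.16 ± 0.31 (SE; edgeR adjusted p = 0.0179). At 11 months its log2 difference was 0.79 ± 0.31 (edgeR adjusted p = 0.0842).

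Other domains with the most similar log2 fold changes in the 4 comparisons were sought among 38152 domains outside the windows, by the root mean square difference. The nearest to the Csf1r lead domain were chr16:33922865-33923261 and chr5:105721875-105723016, at 0.06 and 0.07 on the log2 scale. Nearest to that of Mpeg1 were chr12:103607502-103607796 at 0.09 and chr7:111593834-111594565 at 0.11. For Cx3cr1 they were chr2:30701243-30701701 at 0.11 and chr6:127396496-127397204 at 0.12, and for C1q chr15:100499220-100499878 and chr1:172988503-172989480, both at 0.12. The Ly86 lead domain had no match as close, with chr17:35531136-35531578 at 0.22 and chr2:173044604-173045043 at 0.26. These comparisons cover 23 libraries in 4 pairs of groups.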

How the data were processed

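H3K9ac ChIP-seq of mouse hippocampus was analysed in 23 libraries of 8 groups. The 22 input libraries have no count column and were not used here. What the authors deposited is a matrix of raw counts, not normalised, for 44165 domains. BWA, Picard 1.1175, MACS2 and mm9 are named, without roles, per the submitters' processing notes. Sequencing was single-end with no molecular identifiers mentioned, per the labels' protocols. Intervals of read shares and of ratios of summed reads cover counting error only. Those of log2 differences come from the SE of the fit, which also holds the spread between libraries.

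Members are the domains that overlap the 5 windows. The members and lists were chosen with earlier results of these data known. Domains named with values in every library are the lead domains, and those named with a test include every member past the threshold in any comparison. Values by library for other domains, and the values of C1q domain 3 and Ly86 domain 3, which never passed, were added after they had been seen. The wider list of microglial genes and the cell type markers were not tested, since no mm9 annotation was at hand.

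The main test was that of edgeR 4.0.16 (R 4.3.3; quasi-likelihood F test, robust dispersion, TMM factors, filterByExpr by group). The tau (11 libraries) and CK-p25 (12 libraries) series were fitted apart because of their antibody lots. P-values are two-sided and adjusted across the whole set of tested domains (Benjamini-Hochberg, 0.05). SE is the absolute log2 fold change divided by the root of the F statistic, and 95% intervals are 1.96 SE. The fits were also run on simulated counts with known changes, drawn with dispersions estimated from these data, and the recovery is not given here. Replicate pairs differed by more than sampling noise (chi-square per degree of freedom 1.10 to 1.88, using domains where a pair held 20 reads or more). Alternatives were DESeq2 size factors, library totals, no filter, a replicate block, a stricter threshold (0.01), the Wald test of DESeq2 1.42.0, cross correlation as a covariate, the compared groups alone and each library left out. Leaving out both shallow 6-week libraries was added after seeing the data.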

Additional observations from a re-analysis of the deposited data

Results flagged for a closer look

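At 9 domains the change in tau mice was not the same at both ages when the contrast between ages was tested in edgeR. The difference of the log2 fold changes, 11 minus 6 months, was 0.83 at Csf1r domain 1, 0.95 at Cx3cr1 domain 2, 1.17 at Cx3cr1 domain 4 and 1.46 at Cx3cr1 domain 6. It was 1.00 at C1q domain 1, 1.32 at C1q domain 2 and 1.25 at C1q domain 5. At Mpeg1 domain 1 it was 1.20 and at Ly86 domain 1 it was 1.58. Age and sex cannot be told apart in this difference. The call at C1q domain 1 was lost in the DESeq2 Wald test (adjusted p = 0.115). It was also lost with a replicate block (edgeR adjusted p = 0.0867) and with cross correlation as a covariate (edgeR adjusted p = 0.322). Leaving out wild type replicate 1, 2 or 3 at 11 months lost it too (edgeR adjusted p = 0.0629, 0.0533 and 0.0959). So did leaving out tau replicate 1 or 3 at 11 months (edgeR adjusted p = 0.0508 and 0.145) or wild type replicate 1 or 3 at 6 months (0.115 and 0.15). The Cx3cr1 domain 4 call was lost in the DESeq2 Wald test (adjusted p = 0.0870) and without 6-month wild type replicate 2 or 3 (edgeR adjusted p = 0.140 and 0.0638). It was also lost without 11-month wild type replicate 1 or 2 or tau replicate 1 (edgeR adjusted p = 0.0524, 0.0620 and 0.141). The calls at Cx3cr1 domain 6 and C1q domain 5 were lost with the covariate (edgeR adjusted p = 0.148 and 0.1575). Groups of 2 or 3 libraries were not tested for single libraries that stand apart.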

How the results depend on the processing

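The direction of every lead domain at 11 months and in CK-p25 mice at both times held under each alternative run. Counts of members called ranged from 4 to 11 at 11 months, 10 to 15 at 2 weeks and 7 to 10 at 6 weeks, and stayed at 0 for tau at 6 months. Counts under the alternatives were not set against the share of all domains called in the same fits. The count for the difference between ages, 9, was 3 in the DESeq2 Wald test, 4 at a threshold of 0.01 and 3 with cross correlation as a covariate, and 4 to 10 with a library left out. With 1 library left in the 6-month tau group, that library is assumed to vary like the other groups. The count at 11 months, 11, was 4 with the covariate. The cause of these moves was not tested, except that the stricter threshold lowers a count by construction. At 6 months no lead domain was called, and signs turned at 4 of the 5. The Cx3cr1 value stayed negative, from -0.59 to -0.291. The Csf1r value was 0.03 with a replicate block and 0.00 with the covariate, and with a library left out it ran from -0.03 to 0.03. The same range was -0.17 to 0.34 at C1q, -0.07 to 0.08 at Mpeg1 and -0.60 to 0.07 at Ly86. Replicate numbers did not pair the samples (correlations of deviations from -0.0108 to 0.0863 over 11 pairs). With the replicate block 11, 12 and 10 members were called at 11 months, 2 weeks and 6 weeks, and 8 for the difference between ages. Narrow domains held few reads, so differences there may not be detectable at this depth.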
